A study of Mus musculus with 8 samples.

Results

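The genes described here are Dbp, Tef, Hlf, Nfil3, Bhlhe40, Bhlhe41 and Usp2, a set of transcripts that the circadian clock drives in liver. They were taken as the non-control probes whose gene name in the scanner files is one of these symbols, which gave 7 of 34836 gene names and 9 of 55681 probes. The study measured total RNA of mouse liver on 1-colour Agilent expression arrays, 4 of samples labelled AdLeXis and 4 of samples labelled AdGFP. All were bl6 mice, 12 weeks of age and fed chow, with RNA isolated on day 6. The names are read here as an adenovirus for LeXis, a non-coding RNA of the Abca1 locus that is known to lower expression of cholesterol synthesis genes, and a control adenovirus for green fluorescent protein. The free text on treatment disagrees with this, naming pblockITcontrol and pblockITshRaly, and groups here follow the treatment tag and titles. The labels do not tie the samples to separate animals, so the p-values rest on the scatter of these 8 samples, part of which may be technical. They give no clock time of tissue collection, a limit for transcripts whose level changes over the day. Whole liver was used, so fewer cells of a type and less RNA per cell cannot be told apart.

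As background, the clock proteins CLOCK and BMAL1 (encoded by Arntl) bind E-box sequences and switch on a first layer of output genes. Among these are Dbp, Tef and Hlf, the proline and acidic amino acid-rich (PAR) basic leucine zipper activators, which bind D-box sequences in genes of detoxification and metabolism. NFIL3, also known as E4BP4, is a basic leucine zipper repressor that competes for the same D-boxes and is also needed for natural killer cell development. BHLHE40 and BHLHE41, also known as DEC1 and DEC2, repress E-box driven transcription. USP2 is a ubiquitin-specific protease whose liver transcript is strongly rhythmic.

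The sequence upstream of the start sites is shown for Hlf, Tef and Usp2, because their AdLeXis arrays all lay above their AdGFP arrays. Each line holds the 250 bases before a RefSeq start site (GRCm38.p6), read 5′ to 3′, with motif matches in capitals. Motifs searched on both strands were the E-box CACGTG, the variant CACGTT (3.85% of windows), the D-box as TTATGTAA or TTACGTAA, the ROR element core TAGGTCA and the cAMP response element TGACGTCA, none of which overlapped another here. Of the members, 6 (all but Bhlhe40) had an entry, with 7 windows in all.
Hlf, chr11:90390918-90391167, minus strand: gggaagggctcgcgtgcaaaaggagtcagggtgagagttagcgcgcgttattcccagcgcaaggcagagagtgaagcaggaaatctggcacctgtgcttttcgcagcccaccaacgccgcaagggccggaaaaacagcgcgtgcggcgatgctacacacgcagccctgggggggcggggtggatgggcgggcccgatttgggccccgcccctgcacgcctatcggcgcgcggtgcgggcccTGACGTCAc
Tef, chr15:81802423-81802672, plus strand: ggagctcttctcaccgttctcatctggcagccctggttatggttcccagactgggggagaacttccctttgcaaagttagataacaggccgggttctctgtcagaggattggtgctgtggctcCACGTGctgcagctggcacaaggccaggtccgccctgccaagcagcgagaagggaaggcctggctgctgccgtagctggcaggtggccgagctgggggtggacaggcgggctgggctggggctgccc
Tef, chr15:81811164-81811413, plus strand: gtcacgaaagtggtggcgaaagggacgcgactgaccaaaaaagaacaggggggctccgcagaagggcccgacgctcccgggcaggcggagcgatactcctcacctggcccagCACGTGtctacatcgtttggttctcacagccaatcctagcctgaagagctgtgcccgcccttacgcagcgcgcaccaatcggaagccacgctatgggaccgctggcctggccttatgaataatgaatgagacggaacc
Usp2, chr9:44084670-44084919, plus strand: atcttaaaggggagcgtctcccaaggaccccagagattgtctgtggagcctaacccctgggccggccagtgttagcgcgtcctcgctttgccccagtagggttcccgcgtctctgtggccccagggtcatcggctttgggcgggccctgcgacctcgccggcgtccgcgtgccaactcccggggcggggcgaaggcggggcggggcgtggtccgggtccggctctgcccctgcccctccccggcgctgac
Both Tef windows held CACGTG, with its first base at position -127 in the one and -138 in the other, counted back from the start site; 6.02% of 32851 such windows held it. The Hlf window held TGACGTCA at -9, a match found in 1.55% of windows, and the Usp2 window held none of these motifs. Among the members not shown, Bhlhe41 held CACGTG at -153, Nfil3 held TAGGTCA on the opposite strand at -12 (2.23% of windows), and Dbp had no match. No member window held a D-box in these letters (0 of 7; 0.931% of all windows). A match is a description of letters in this window only.

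Hlf rose modestly in AdLeXis, and no other member passed the test. Of the 7 members, 1 was called higher, 0 were called lower and 6 did not pass at an adjusted p of 0.05 (limma with Benjamini-Hochberg adjustment over 24011 genes), where 8.73% of all genes were called higher, 8.76% lower and 17.5% either way. At an unadjusted p under 0.05, 3 members were higher (Hlf, Usp2 and Tef) and 0 lower, against 16.1% of all genes higher and 32.1% either way. The AdLeXis mean lay above the AdGFP mean for 6 of 7 members (49.7% of all genes). For 3 members every AdLeXis array exceeded every AdGFP array (12.4% of genes) and for 0 the reverse held (12.3%; 24.7% either way). The median log2 difference over the 7 was 0.25, beside -0.0020 over all genes. With the arrays scaled on their medians instead, calls over all genes were 1158 higher and 2683 lower in place of 2095 and 2104.

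**Figure D1:**
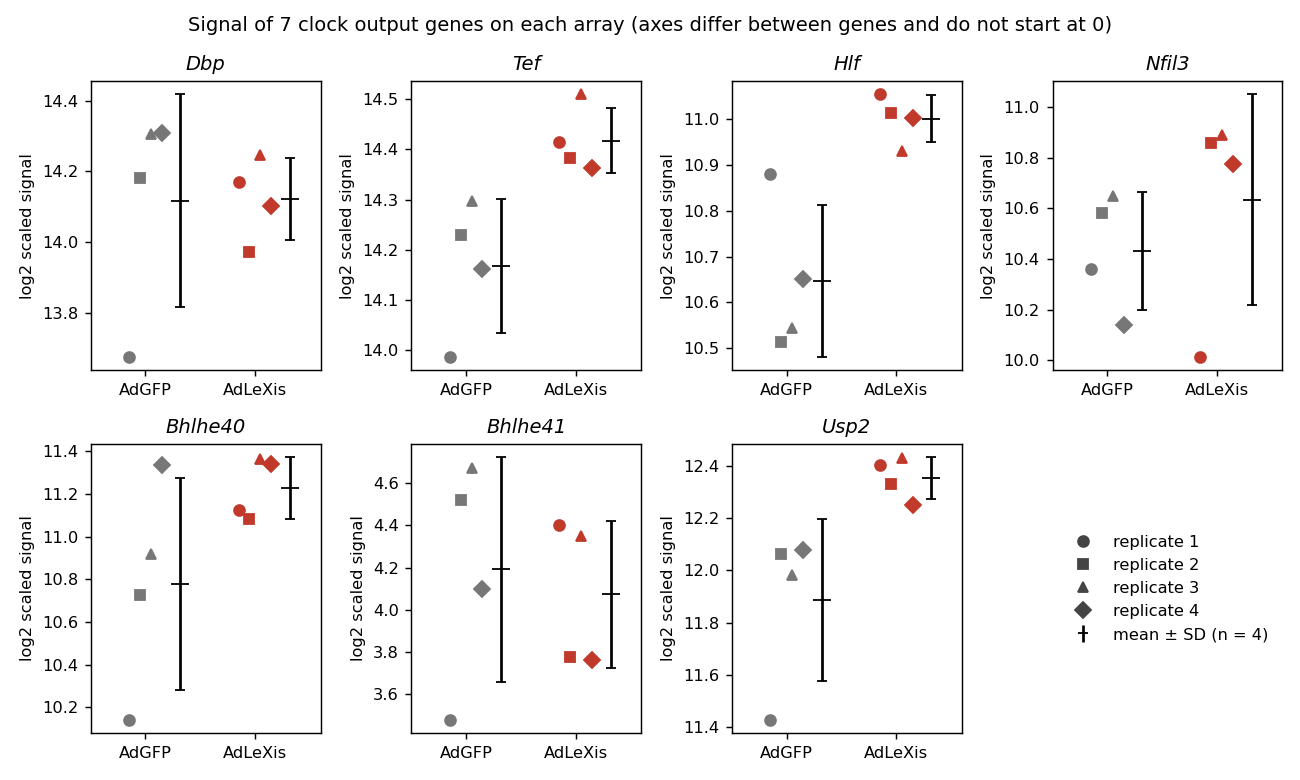
Log2 scaled signal of each of the 7 genes on every array, AdGFP in grey and AdLeXis in red, with a marker for each replicate number and the mean ± SD (n = 4) beside each group; axes differ between genes. All red points lie above all grey points for Tef, Hlf and Usp2, and AdGFP replicate 1 is the lowest AdGFP point for 5 genes.

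Unscaled AdLeXis arrays were brighter, with 75th percentiles of 381.4 to 448.1 in place of 219.6 to 296.6 in AdGFP. Spots well above background made up 62.6% to 67.7% of AdLeXis arrays and 58.9% to 62.5% of AdGFP arrays, and saturated spots numbered 0. All 8 arrays sat on 1 slide with 1 scan; the AdGFP arrays filled its row 1 and the AdLeXis arrays its row 2, so slide row and group cannot be told apart. Of the 9 member probes, 8 passed the filter on dim probes and 7 were well above background on all 8 arrays. The hepatocyte markers were all well above background on every array (10 of 10).

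Among the PAR activators, Hlf encodes hepatic leukemia factor. Its probe (A_55_P2009752, mm9 chromosome 11, 90200696 to 90200755, minus strand) gave log2 signals of 10.88, 10.51, 10.54 and 10.65 on AdGFP replicates 1 to 4. On AdLeXis replicates 1 to 4 it gave 11.05, 11.01, 10.93 and 11.002. The groups did not overlap, with AdGFP replicate 1 the nearest to the AdLeXis arrays. Means were 10.65 ± 0.17 and 10.9998 ± 0.051 (SD, n = 4 per group), a difference of 0.35 (SE 0.098; 95% interval 0.13 to 0.58; limma adjusted p = 0.0412). On the linear scale this is 1.28-fold (interval 1.09 to 1.49). Leaving out any 1 array other than AdGFP replicate 1 lost the call. The limma adjusted p-values then ran from 0.0648 (without AdLeXis replicate 3) to 0.101 (without AdGFP replicate 2). Calls over all genes also fell when 1 array was left out, to between 2519 and 4122 against 4199. With all arrays kept, the Hlf call was lost under median, quantile and cyclic loess scaling and with the percentile of detected probes. It was also lost with no filter on dim probes and with the replicate block. The difference stayed between 0.27 and 0.66 over 20 alternative settings, 7 of which called it.

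Tef, thyrotroph embryonic factor, is the activator whose windows hold the E-box. Its probe (A_55_P1979893, mm9 chromosome 15, 81657221 to 81657280, plus strand) gave 13.99, 14.23, 14.30 and 14.16 on AdGFP replicates 1 to 4. The AdLeXis replicates gave 14.41, 14.38, 14.51 and 14.36, all above the highest AdGFP array. The means were 14.17 ± 0.13 and 14.42 ± 0.065 (SD, n = 4 per group), or 1.19-fold. The difference of 0.25 (SE 0.090; 95% interval 0.043 to 0.45) did not pass over all genes (limma adjusted p = 0.0945). It was called under 3 of 20 alternatives: quantile scaling (0.30, limma adjusted p = 0.0343), cyclic loess scaling (0.31, limma adjusted p = 0.0332) and a variance model with a trend (limma adjusted p = 0.0443). The call thus turned on the scaling and on the variance model, and median scaling, the percentile of detected probes and normexp did not call it.

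Dbp, the D-site binding protein first found on the albumin promoter, showed no difference that these arrays could resolve. It has 2 probes on mm9 chromosome 7 (A_55_P2032081, 52965322 to 52965381, and A_55_P2032079, 52965461 to 52965520, plus strand). The brighter probe gave 13.68, 14.18, 14.31 and 14.31 on AdGFP replicates 1 to 4, and 14.17, 13.97, 14.25 and 14.10 on AdLeXis replicates 1 to 4. AdGFP replicate 1 stood low and the other 7 arrays overlapped. The difference was 0.0048 (SE 0.15; 95% interval -0.34 to 0.35; limma adjusted p = 0.989), so a change of up to 1.27-fold up or 0.790-fold down lies inside the interval. The other probe gave -0.041 (SE 0.10; limma adjusted p = 0.835 over all probes). Without AdGFP replicate 1 the brighter probe gave -0.14 (limma adjusted p = 0.387). The sign of so small a difference was not stable: it was positive under 13 and negative under 7 of 20 alternatives, negative among others with median scaling (-0.078) and positive with quantile scaling (0.051) and normexp (0.25).

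Nfil3, the repressor of the same D-boxes, varied more within groups than between them. Its probe (A_55_P2035320, mm9 chromosome 13, 53062578 to 53062637, minus strand) gave 10.36, 10.58, 10.65 and 10.14 on AdGFP replicates 1 to 4. AdLeXis replicates 2, 3 and 4 gave 10.86, 10.89 and 10.78, above every AdGFP array, while AdLeXis replicate 1 gave 10.01, the lowest of all 8. The difference was 0.20 (SE 0.21; 95% interval -0.28 to 0.69; limma adjusted p = 0.562). It was 0.41 without AdLeXis replicate 1 (limma adjusted p = 0.0808) and 0.0020 under normexp with quantile scaling, and was called under 0 of 20 alternatives. Markers of T and natural killer cells, which also use NFIL3, were mostly lower in AdLeXis. Of 16, 14 were called lower and 0 were called higher (8.76% of all genes were called lower), with a median of -1.05. The mean over this marker list ran from 8.72 to 8.81 on AdGFP and from 7.81 to 8.01 on AdLeXis arrays, and its part in the Nfil3 signal was not tested. Cd3d, of the T cell receptor complex, fell by 1.31 and Tbx21, a transcription factor of T helper and natural killer cells, fell by 1.07 on the log2 scale (limma adjusted p = 0.00108 and 0.000623). The markers of the list that did not pass were both natural killer cell receptors: Ncr1 gave 0.73 (SE 0.26; limma adjusted p = 0.0949), well above background on 2 of 4 AdGFP arrays, and Klrb1c gave -0.046 (SE 0.22; limma adjusted p = 0.914). Without AdGFP replicate 3, Ncr1 was the 1 marker of this list called higher.

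Bhlhe40, 1 of the E-box repressors, gave 10.14, 10.72, 10.92 and 11.34 on AdGFP replicates 1 to 4 (A_51_P272553, mm9 chromosome 6, 108616309 to 108616368, plus strand). AdLeXis replicates gave 11.12, 11.08, 11.36 and 11.34. The AdLeXis arrays clustered within 0.28 at the top of the AdGFP range, which spanned 1.19. The difference of 0.45 (SE 0.23; 95% interval -0.074 to 0.97) did not pass (limma adjusted p = 0.218). Leaving out AdGFP replicate 1 gave 0.23, leaving out AdGFP replicate 4 gave 0.63, and the difference was called under 1 of 20 alternatives, normexp with quantile scaling (0.61, limma adjusted p = 0.0403). Bhlhe40 is also expressed in lymphocytes and macrophages. Macrophage markers leaned lower as well, with 5 of 10 called lower and 0 called higher (8.76% and 8.73% of all genes). The number called lower was 3 when AdGFP replicate 1, AdGFP replicate 2 or AdLeXis replicate 2 was left out. The differences had a median of -0.49 and ran from -1.70 to 0.095, with 1 of 10 above 0. The list's mean ran from 11.89 to 12.36 on AdGFP and from 11.38 to 11.67 on AdLeXis arrays, and its part in the Bhlhe40 signal was not tested.

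Bhlhe41 was near the detection limit. Its kept probe (A_51_P451176, mm9 chromosome 6, 145811275 to 145811334, minus strand) was well above background on 2 of 4 AdGFP and 4 of 4 AdLeXis arrays. It gave 3.48, 4.52, 4.67 and 4.10 on AdGFP replicates 1 to 4 and 4.40, 3.78, 4.35 and 3.76 on AdLeXis replicates 1 to 4, a full overlap. The difference was -0.12 (SE 0.28; 95% interval -0.75 to 0.52; limma adjusted p = 0.814), and 0.016 under normexp with quantile scaling. The other probe, A_55_P2133001 (145812652 to 145812711), was well above background on 1 AdGFP and 2 AdLeXis arrays and was not tested. At this signal a change in Bhlhe41 was not resolvable.

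Usp2, like Tef, was higher on every AdLeXis array and missed the threshold. Its probe (A_55_P1985788, mm9 chromosome 9, 43903649 to 43903708, plus strand) gave 11.43, 12.06, 11.98 and 12.08 on AdGFP replicates 1 to 4. The AdLeXis replicates gave 12.40, 12.33, 12.43 and 12.25, all above the highest AdGFP array. AdGFP replicate 1 stood 0.55 below the next array of its group, whereas the AdLeXis arrays spanned 0.18. The difference was 0.47 (SE 0.15; 95% interval 0.12 to 0.81), or 1.38-fold (limma adjusted p = 0.0652). Without AdGFP replicate 1 it was smaller, 0.31, with an SE of 0.087 (limma adjusted p = 0.0589). It was called under 3 of 20 alternatives: normexp with quantile scaling (limma adjusted p = 0.0482), probes required on all 8 arrays (0.0484) and the variance trend (0.0269). The gene table lists several transcripts of Usp2, and which of them the single probe reports was not determined here.

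**Figure D2:**
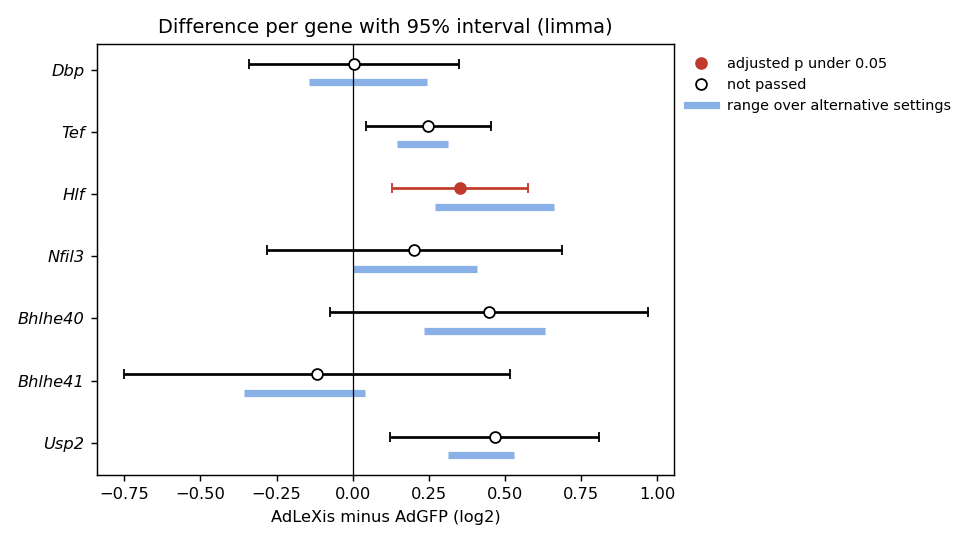
AdLeXis minus AdGFP on the log2 scale for each of the 7 genes with its 95% interval (filled red, adjusted p under 0.05; open, not passed) and, in blue, the range over the alternative settings. Hlf at 0.35 is the filled point, the intervals of Tef and Usp2 also lie above 0, and those of Dbp, Nfil3, Bhlhe40 and Bhlhe41 cross it.

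The AdGFP arrays were less alike than the AdLeXis arrays for these genes. The SD was larger in AdGFP for 6 of 7 members (46.6% of all genes), Nfil3 being the exception. AdGFP replicate 1 was the lowest of its group for 5 of 7 members, Dbp, Tef, Bhlhe40, Bhlhe41 and Usp2 (29.7% of all genes), and the highest for 1, Hlf. From the AdGFP mean it deviated by -0.71 for Bhlhe41, -0.64 for Bhlhe40, -0.46 for Usp2, -0.44 for Dbp and 0.23 for Hlf. Of the core clock genes, the same array was 0.44 under the AdGFP mean for Nr1d1 (-0.44) and 0.35 over it for Arntl.

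**Figure D3:**
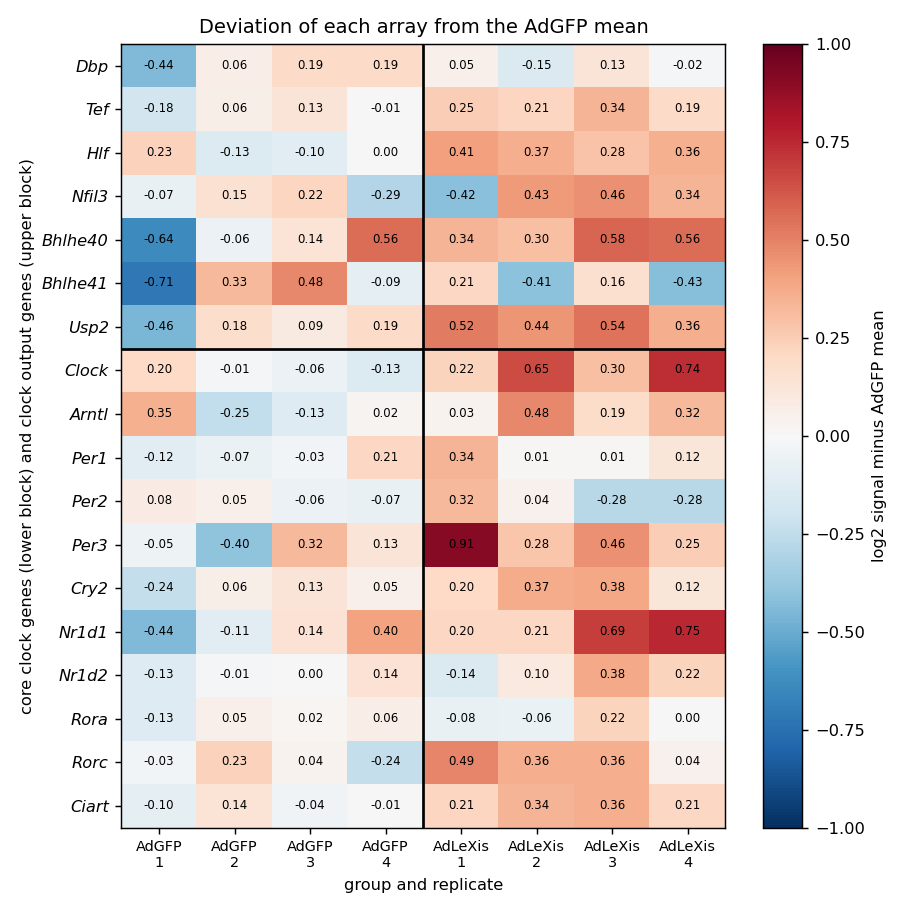
Log2 signal minus the AdGFP mean of the gene, for each array (columns) and for the 7 clock output genes (upper block) and 11 core clock genes (lower block); red is above and blue below that mean. AdGFP replicate 1 is low for Dbp (-0.44), Bhlhe40 (-0.64), Usp2 (-0.46) and Nr1d1 (-0.44) and high for Arntl (0.35), and the AdLeXis columns are above 0 throughout for Tef, Hlf, Bhlhe40 and Usp2.

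Upstream of these outputs, calls among the core clock genes at an adjusted p of 0.05 were no more frequent than among all genes (1 of 11, against 17.5% either way). Their differences leaned upward, however, with the AdLeXis mean above the AdGFP mean for 10 of 11 (49.7% of all genes). Of 13 genes listed, 11 were measured (Npas2 and Cry1 did not pass the filter), 1 was higher, 0 were lower and 10 did not pass (8.73% of all genes were higher and 8.76% lower), with a median log2 difference of 0.27. At an unadjusted p under 0.05, 5 were higher and 0 lower (16.1% of all genes were higher, 32.1% either way). The upward lean depended in part on the scaling. The list's median was 0.19 with median scaling and 0.19 under normexp with quantile scaling. Under normexp, Per1 (-0.027), Nr1d2 (-0.053) and Rora (-0.12) turned negative, as Per2 already was. Clock, which encodes the partner of BMAL1, rose by 0.48 (SE 0.14; limma adjusted p = 0.0485) with groups that did not overlap; it gave 0.19 under normexp with quantile scaling (limma adjusted p = 0.359); it was called under 8 of 20 alternatives and lost the call without any 1 array other than AdLeXis replicate 1. Arntl differed by 0.25 (SE 0.15, limma adjusted p = 0.290). Of the E-box targets that feed back on the clock, Per1 gave 0.12, Per2 -0.046, Per3 0.47 and Cry2 0.27 (limma adjusted p from 0.131 to 0.861). Nr1d1, which encodes the repressor REV-ERB alpha, gave 0.46 (limma adjusted p = 0.165), and Ciart 0.28 (limma adjusted p = 0.0534). Ciart was called higher under 3 of 20 alternatives. Nr1d1 (with the replicate block) and Cry2 (under normexp with quantile scaling) were called higher under 1 each.

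Genes known to depend on PAR factors or to carry D-boxes moved in both directions. Of 9 listed, 8 were measured, 1 was higher, 2 were lower and 5 did not pass (8.73% and 8.76% of all genes), with a median of -0.19 that became 0.060 under quantile scaling and 0.34 under normexp. Cyp2b10, a drug-metabolizing cytochrome P450, rose from 11.61 ± 0.53 to 14.12 ± 0.32 (SD, n = 4 per group), a log2 difference of 2.51 (SE 0.27; adjusted p of the limma fit 0.00123), and was called under 20 of 20 alternatives. Nr1i3, which encodes the receptor CAR and is known as a direct activator of Cyp2b10, gave -0.38 (SE 0.13, limma adjusted p = 0.0754). It was called lower under 5 of 20 alternatives. Alas1, the first enzyme of heme synthesis, fell by 0.70 with an SE of 0.091 (limma adjusted p = 0.00254); under normexp it gave -0.33 (limma adjusted p = 0.0817). Alb, whose promoter gave DBP its name, fell by 0.61 (SE 0.093, limma adjusted p = 0.00435), but gave 0.27 under normexp (limma adjusted p = 0.0680). Quantile scaling gave this very bright probe the same value on every array, so that setting shows no direction for it. Por, the electron donor of the cytochromes P450, gave 0.0036, Cyp2a4 0.0095, Cyp7a1, the rate-limiting enzyme of bile acid synthesis, -0.57 (SE 0.42), and Ppara 0.27 (SE 0.11), none of them called. Ppara was called higher under 1 of 20 alternatives, normexp with quantile scaling (0.63, limma adjusted p = 0.0129). The hepatocyte marker list, which shares Alb, had 9 of 10 lower and 0 higher with a median of -0.56, and a median of -0.087 under quantile scaling with 1 called lower. Its mean per array ran from 17.70 to 17.82 in AdGFP and from 17.11 to 17.33 in AdLeXis, and its part in the falls of Alb and Alas1 was not tested.

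**Figure D4:**
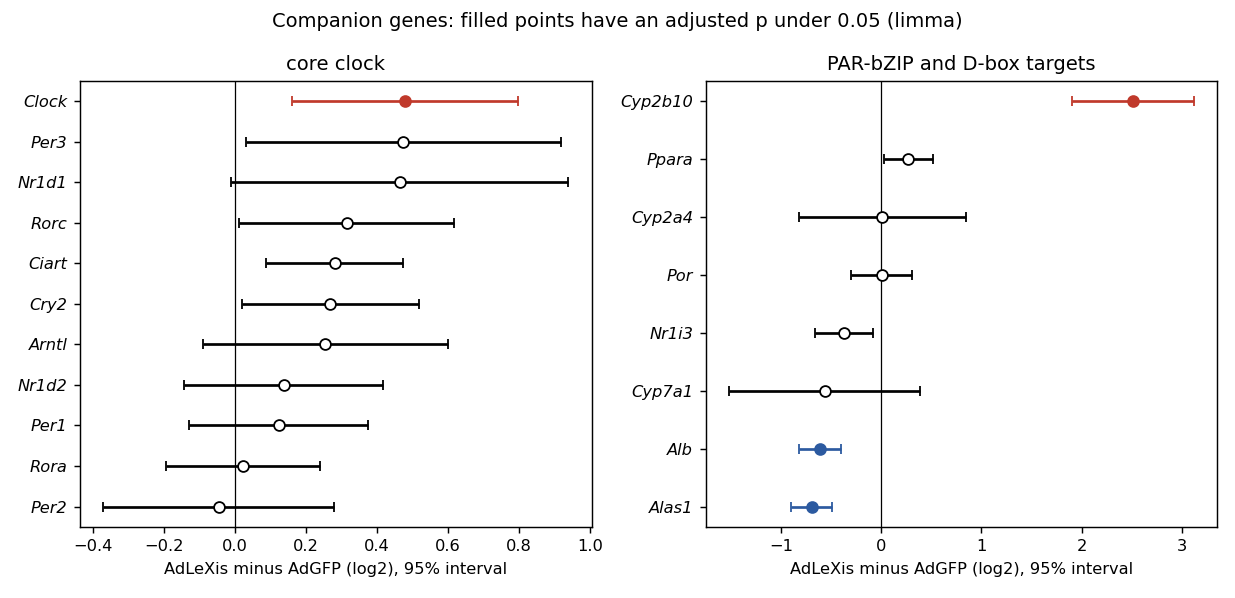
AdLeXis minus AdGFP on the log2 scale with its 95% interval for 11 core clock genes (left) and 8 genes known to depend on PAR factors or D-boxes (right); the horizontal scales differ. Filled points passed the test: Clock at 0.48 on the left, Cyp2b10 at 2.51, Alb at -0.61 and Alas1 at -0.70 on the right.

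Relatives and other outputs of the clock had no member called with the 75th percentile scaling, where 17.5% of all genes were called and 32.1% had an unadjusted p under 0.05. Of 6 C/EBP and related basic leucine zipper genes, 0 were called by limma (1 lower at an unadjusted p under 0.05, Ddit3, at -0.32). Cebpb, which binds sites much like the D-box, gave 0.25 (limma adjusted p = 0.230) and Cebpa -0.046 (limma adjusted p = 0.870). Of 9 other rhythmic liver transcripts, 0 were called by limma (1 upward and 1 downward when p was left unadjusted, at 0.05). Those were Wee1, a mitotic inhibitor kinase with E-boxes, at 0.46, and Nampt, of NAD synthesis, at -0.32. Some were called in other settings: under normexp with quantile scaling Cebpb (0.60, limma adjusted p = 0.0227), Rgs16 (1.01, limma adjusted p = 0.0202) and Nampt (-0.47, limma adjusted p = 0.0205), each in 1 of 20. Wee1 was called in 3 of 20, with the variance trend, the replicate block and without AdLeXis replicate 1 (limma adjusted p = 0.0432, 0.0430 and 0.0209).

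By the root mean square difference between centred log2 profiles over the 8 arrays, taken against 15029 genes with a proper name, the nearest profile to Dbp was that of Cebpa (0.072), and that of Prss58 came next (0.078). Bhlhe40 lay nearest to Senp6 (0.13) and then to Nr1d1 (0.13). Tef lay nearest to Crtc2 (0.035) and Miip (0.040), Hlf to Kdm6a (0.050) and Ctf2 (0.058), and Usp2 to Amer1 (0.057) and Zfp59 (0.081). Nfil3 lay nearest to Kctd21 (0.11) and Ypel5 (0.11), and Bhlhe41, at low signal, to Tcl1b2 (0.16) and Cryba1 (0.17). These are descriptions of 8 arrays of 2 groups.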

How the data were processed

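The authors deposited 1 scanner file per array with linear spot intensity. The software was Feature Extraction, version 11.5.1.1 in the headers and 11.5.1.11 in the submitters' processing notes. A value table they also deposited equals the processed intensity (largest relative difference 0). Background subtraction and spatial detrending, array by array, preceded deposit, and probe coordinates are on mm9, per the file headers.

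Log2 processed signals of the 59305 non-control spots were shifted to a common 75th percentile per array; outlier spots, 127 to 256 on each, were then dropped and repeated spots of a probe averaged. A probe stayed in (34468 did) if 4 or more arrays had it well above background and each group had 2 or more measurements of it. A gene is its brightest kept probe (24011 genes, named through RefSeq accessions of GRCm38.p6). Groups were compared with limma 3.58.1 in R 4.3.3, two-sided, with Benjamini-Hochberg adjustment over all genes. The fit was tested on simulated data. Alternatives were 5 other scalings, 2 filters, probe averaging, 3 variance models, a replicate block and leaving out each array. The number of arrays limits the precision.

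The members and gene lists were chosen with earlier results of these data known. Genes named are the members, called or core clock and PAR-target genes of the lists, and the 2 nearest profiles per member. Named after their values were seen: Ddit3, Wee1, Nampt, Rgs16, Cebpa, Cebpb, Ncr1 and Klrb1c.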

Additional observations from a re-analysis of the deposited data

Results flagged for a closer look

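In AdGFP, Usp2 of replicate 1 stood apart: 11.43 on the log2 scale against 11.98 to 12.08 on the other 3 arrays, a gap to the nearest array of 0.853 of the group's range, above Dixon's 95% limit. In AdLeXis, Nfil3 of replicate 1 stood apart: 10.01 against 10.78 to 10.89, a gap of 0.869 of the range. These were 2 of 14 groups of 4 arrays examined, and chance flags about 1 in 20 groups. The cause was not tested.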

How the results depend on the processing

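The members called higher numbered 1 in the fit described. They numbered 0 with median scaling, 0 with the 75th percentile over probes detected on all arrays, 0 with no filter on dim probes and 0 with the replicate block. They numbered 3 with normexp and quantile scaling, 2 with probes required on all 8 arrays and 3 with the variance trend, and from 0 to 1 when each array was left out in turn. The 1 call was Tef, not Hlf, under quantile and cyclic loess scaling. No measured member was called lower under any of these (0 in each, limma); Bhlhe41 was not measured where all 8 arrays were required, which left 6 members there. Calls over all genes ran from 2519 (without AdLeXis replicate 4) to 4122 when an array was left out, against 4199 (higher 1246 to 2086, lower 1273 to 2036); median scaling gave 1158 higher and 2683 lower. Dbp turned to -0.078 with median scaling, -0.026 with the percentile of detected probes, -0.018 with the mean of its probes and -0.014 with array weights, and ran from -0.14 to 0.068 when an array was left out. Bhlhe41 turned to 0.016 under normexp and quantile scaling and ran from -0.36 to 0.0415. Signs of Tef, Hlf, Nfil3, Usp2 and Bhlhe40 were positive in all 20 alternatives. Same-numbered arrays deviated together over all genes with correlations from 0.0016 to 0.12. AdLeXis replicates 2 and 3, but not 1 and 4, correlated best with the AdGFP array of their own number. Correlations this weak cannot tell whether the numbers pair the samples. With the replicate block Hlf gave 0.35 (limma adjusted p = 0.0631) and 3151 genes were called. That block lowered the SE of Nr1d1 from 0.21 to 0.096 and of Cyp7a1 from 0.42 to 0.14. It raised the SE of Clock from 0.14 to 0.16 and of Arntl from 0.15 to 0.18. The cause of these changes was not tested. A slide block could not be fitted because 1 slide and 1 scan hold all arrays, and the value table was not run because it equals the scanner values. Signal near background limits Bhlhe41.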
